A study of Mus musculus with 12 samples.

Results

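The genes described here are 36 genes of transport between the endoplasmic reticulum (ER) and the Golgi apparatus, out of 55471 genes in the tables. They were chosen by name and role, and all 36 were found by symbol: 11 of the COPII coat, 11 of the COPI coat, 5 of the Golgi matrix and its tethers, 3 KDEL receptors and 6 cargo receptors. RNA-seq was done on J1 mouse embryonic stem cells (ESCs, strain 129S4/SvJae) that were either *Snap29* knockout (KO) or wild type (WT). *Snap29* encodes a SNARE protein, 1 of the proteins that fuse vesicles with their target membrane. There were 3 libraries in each of 4 groups: KO cells at day 14 of differentiation, WT cells at day 14, undifferentiated KO ESCs (day 0) and undifferentiated WT ESCs (day 0). Day 14 cells had been grown without leukemia inhibitory factor (LIF), first in hanging drops and then on plates.

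Newly made secretory and membrane proteins leave the ER in vesicles with a COPII coat. The GTPase SAR1 starts the coat, SEC23 and SEC24 form its inner layer and bind cargo, and SEC13 and SEC31 form the outer cage. The COPI coat, recruited by the GTPase ARF1, returns escaped ER proteins and cargo receptors from the Golgi. KDEL receptors bind the tail of soluble ER chaperones in the Golgi and bring them back, while tethers and GRASP proteins hold vesicles and cisternae together.

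All values are FPKM, fragment counts divided by gene length and by library depth. Fragments assigned to genes ranged from 16638790 to 19226488 a library. The depth implied by the FPKM was 0.998 to 1.1 times that number, at 1.02 to 1.05 in KO and 1.09 to 1.1 in WT at day 14. The same share of assigned fragments thus gives a lower FPKM in WT than in KO at day 14. *Snap29* was 2.31, 1.87 and 1.88 FPKM in KO cells at day 14, against 9.22, 9.88 and 8.09 FPKM in WT cells at day 14, and 0.611, 0.415 and 0.657 FPKM in KO ESCs, against 5.87, 6.59 and 5.51 FPKM in WT ESCs, so every KO library was below every WT library of its day. *Atrx*, a chromatin remodeler gene, stood in KO at 1.02% of its WT mean at day 14 and at 1.23% in ESCs, so loss of *Snap29* and loss of *Atrx* cannot be told apart in these KO cells. The study names 1 KO clone for the ESC libraries and no clone for day 14. It calls the 3 libraries of a group biological replicates. Whether replicates came from separate cultures is not stated in the labels or in the study, so a p-value here covers library-to-library spread that may be technical. In WT replicate 3 of day 14 *Atrx* was 6.24 FPKM, against 12.6 FPKM in each of the other WT libraries of that day. Across genes, the log2 values of this library had an r of 0.960, 0.960 and 0.954 with KO replicates 1, 2 and 3 of day 14. With WT replicates 1 and 2 of day 14 the r was 0.958 and 0.953. Members whose call changes when this library is left out are named below.

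Markers of other cell types moved with the groups. At day 14 the 8 striated muscle markers summed to 209 to 281 FPKM in KO and 32.7 to 101 FPKM in WT, the 5 epithelial markers to 3459 to 3645 FPKM in KO and 1946 to 2530 FPKM in WT, and the 8 mesenchymal markers to 80.3 to 90.0 FPKM in KO and 135 to 145 FPKM in WT. *Acta1* and *Actc1* made up most of the KO muscle sum. They were at 145 to 169 and 54.7 to 108 FPKM in KO, and at 16.1 to 53.2 and 7.86 to 41.6 FPKM in WT. Of 7 muscle markers tested 1 was called, as higher in KO. Of the 8 mesenchymal markers 1 was called, as lower in KO. *Col1a2* went the other way (17.6 to 19.8 FPKM in KO and 11.0 to 16.4 FPKM in WT). The 8 trophoblast markers summed to 138 to 164 FPKM in KO and 252 to 413 FPKM in WT. *Hand1* made up most of the KO sum, at 133 to 154 FPKM in KO and 118 to 160 FPKM in WT, while 5 of the 8 fell in KO, such as *Ctsj*, at 0.216 to 0.301 FPKM in KO and 47.9 to 123 FPKM in WT, and the median log2 difference was -4.06. Sums were also lower in KO for the 8 endoderm markers, at 1.82 to 2.26 FPKM in KO and 5.84 to 30.2 FPKM in WT, with *Afp* and *Apob* under 0.1 FPKM in each KO library and above it in each WT library, and *Alb* under 0.1 FPKM in both. The 8 ESC markers summed to 3046 to 3556 FPKM in KO and 2153 to 2936 FPKM in WT at day 14, and to 3741 to 4262 FPKM in KO and 3399 to 3560 FPKM in WT ESCs, where 6 neuronal markers summed to 162 to 190 FPKM in KO and 114 to 121 FPKM in WT. Of these 6, *Dcx* and *Snap25* were under 0.1 FPKM in every ESC library. Of the 4 tested in ESCs, 3 were called higher in KO, and 1 was lower in every KO library (log2 difference -0.59) without a call. Most of the ESC marker sum at day 14 was *Dppa5a* (2309 to 2798 FPKM in KO and 1635 to 2257 FPKM in WT), whereas the other 7 ESC markers fell with differentiation in both genotypes. Between KO and WT ESCs 4 of the 8 ESC markers were called higher in KO and 2 lower, beside 11% and 10.4% of all genes tested. *Pou5f1* and *Sox2* were lower in KO than in WT ESCs (log2 differences -0.24 and -0.30, limma, adjusted p = 0.0309 and 0.0246). *Esrrb* went the other way, with a mean of 133 FPKM in KO and 66.6 FPKM in WT ESCs, as did *Klf4*, with 62.4 FPKM in KO and 44.9 FPKM in WT. In these bulk samples fewer cells of a type and less RNA per cell cannot be told apart, and the part of these differences in the results below was not tested.

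A short motif recurs in the promoters of the members, and the sequences that hold it are shown here because *Kdelr3*, the gene with the largest KO difference among the members, is 1 of them. RefSeq promoters (GRCm38.p6, 250 bases before to 50 after the start) were found for 31 of the 36 members, the others being *Arcn1*, *Golgb1*, *Kdelr2*, *Tmed2* and *Lman1*. In all, 11 motifs were searched on both strands, chosen with the expression values known. TGACGTGG (reverse complement CCACGTCA), the letters of an unfolded protein response element known to bind the stress factors XBP1 and ATF6, was in 7 of 31 member promoters (22.6%). The same letters were in 3 of 126 promoters of other ER-Golgi genes (2.38%), in 1.02% of 12187 expressed protein-coding genes and in 0.714% of all 27025 genes with a promoter in the table. The other ER-Golgi genes are a mixed set of 150 listed genes and not transport genes alone. They include 21 ER chaperone and folding genes, 17 secreted matrix genes and 10 transcription factor genes. The 7 matches follow with their surroundings, 5′ to 3′ on the strand of the gene, with the match in capitals.
*Kdelr3* (chr15:79516338-79516425, plus strand): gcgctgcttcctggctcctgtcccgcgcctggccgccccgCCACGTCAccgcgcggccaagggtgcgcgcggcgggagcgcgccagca
*Sec24d* (chr3:123267430-123267517, plus strand): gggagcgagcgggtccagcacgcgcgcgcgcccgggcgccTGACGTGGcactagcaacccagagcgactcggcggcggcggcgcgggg
*Sec23a* (chr12:59011968-59012051, minus strand): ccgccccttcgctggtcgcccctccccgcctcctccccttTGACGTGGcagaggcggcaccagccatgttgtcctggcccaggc
*Copb1* (chr7:114254661-114254748, minus strand): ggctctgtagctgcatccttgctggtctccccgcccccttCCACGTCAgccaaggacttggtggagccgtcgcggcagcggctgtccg
*Copb2* (chr9:98563684-98563771, plus strand): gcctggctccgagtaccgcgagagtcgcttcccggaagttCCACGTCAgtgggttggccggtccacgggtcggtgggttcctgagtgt
*Arf1* (chr11:59228199-59228286, minus strand): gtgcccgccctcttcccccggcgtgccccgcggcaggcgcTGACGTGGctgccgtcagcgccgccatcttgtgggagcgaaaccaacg
*Gbf1* (chr19:46152506-46152593, plus strand): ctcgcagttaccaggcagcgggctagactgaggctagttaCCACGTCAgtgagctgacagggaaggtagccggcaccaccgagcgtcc
The match began at position -30 from the start in *Kdelr3*, -26 in *Sec24d*, -28 in *Copb1*, -7 in *Copb2* and -12 in *Gbf1*, and at base 7 of the transcript in *Sec23a*. *Arf1* has 2 listed starts, and its match lay at position -84 from 1 of them and at base 22 after the other. Of these 7 genes, 5 were higher at day 14 than at day 0 in both genotypes (*Sec23a*, *Sec24d*, *Copb1*, *Copb2* and *Arf1*), as were 19 of the 31 members with a promoter. Between KO and WT ESCs *Kdelr3* alone of the 7 was called higher in KO. *Sec24d* was called lower, and *Sec23a*, *Copb1*, *Copb2*, *Arf1* and *Gbf1* were not called.

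The other 10 motifs gave the following shares. TGACGTG, the core that lies within TGACGTGG, was in 8 members (25.8%) and in 3.12% of expressed protein-coding genes. CCACG, which overlaps the reverse complement of that motif, was in 24 members (77.4%) and in 49.7% of those genes, and ACTTCCGG, the letters of an ETS factor site, was in 6 members (19.4%) and in 7.84%. CACGTG was in 4 members (12.9%) and in 11.2%, CACGTGAC in 2 members (6.45%) and in 4.31%, TGACGTCA in 1 member (3.23%) and in 3.37%, and TATAAA in 2 members (6.45%) and in 9.76%. The ER stress element, its second form and the CLEAR element of lysosomal genes were in 0 of 31 members, and in 0.181%, 0.0738% and 0.648% of expressed protein-coding genes. In the 126 promoters of other ER-Golgi genes the shares were 5.56% for TGACGTG, 64.3% for CCACG, 14.3% for ACTTCCGG, 12.7% for CACGTG, 4.76% for CACGTGAC, 3.17% for TGACGTCA, 10.3% for TATAAA, 5.56% for the ER stress element, 0.794% for its second form and 1.59% for the CLEAR element. A match describes letters in a window and not a bound site, and these shares were not tested.

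Levels differed widely among the members. *Arf1* was the most abundant in all 4 groups, at 291 ± 18.0 FPKM in KO and 246 ± 30.1 FPKM in WT at day 14, with 193 ± 9.36 FPKM in KO ESCs and 197 ± 2.29 FPKM in WT ESCs (SD, n = 3 each). The median member stood at 25.02 FPKM in KO and 25.2 FPKM in WT at day 14, and at 19.4 FPKM in KO and 18.5 FPKM in WT ESCs. The lowest member at day 14 was *Sec24a*, a cargo-binding COPII subunit, with a mean of 3.67 FPKM in KO and 3.92 FPKM in WT. In ESCs it was *Copz2*, a COPI subunit, which rested there on 7 to 12 fragments a library in KO and 8 to 12 in WT.

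In ESCs the knockout was compared with WT directly, and *Kdelr3* stood out. This KDEL receptor gene lies at chr15:79516411-79527739 (mm10, plus strand, ENSMUSG00000010830). It was 41.4, 43.1 and 40.9 FPKM in KO ESCs, against 9.43, 10.02 and 10.01 FPKM in WT ESCs, each KO library being above each WT library. The log2 difference was 2.08 ± 0.04 (SE, limma, adjusted p = 7.01e-06), or 4.22-fold. It rested on 1018 to 1061 fragments in KO and 229 to 260 fragments in WT libraries, and the call held in 18 of 18 alternatives of the processing, with log2 differences of 1.98 to 2.20.

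The other KDEL receptor genes differed little. *Kdelr2* was 47.2, 47.0 and 47.7 FPKM in KO ESCs, against 43.0, 39.1 and 38.1 FPKM in WT ESCs, without overlap, and rose by a log2 difference of 0.24 ± 0.05 (adjusted p = 0.0179). *Kdelr1* was 19.3, 18.7 and 18.1 FPKM in KO ESCs, against 18.5, 17.3 and 19.8 FPKM in WT ESCs, with overlapping groups and no call. The 3 receptors summed to 108 ± 1.05 FPKM in KO and 68.4 ± 2.27 FPKM in WT ESCs. *Kdelr3* made up 38.8% ± 0.728 of that sum in KO and 14.4% ± 0.942 in WT ESCs (SD, n = 3 each), a difference of 24.4 percentage points, for which the exact two-sided permutation test gave p = 0.1, the smallest p that 3 libraries against 3 allow.

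**Figure D1:**
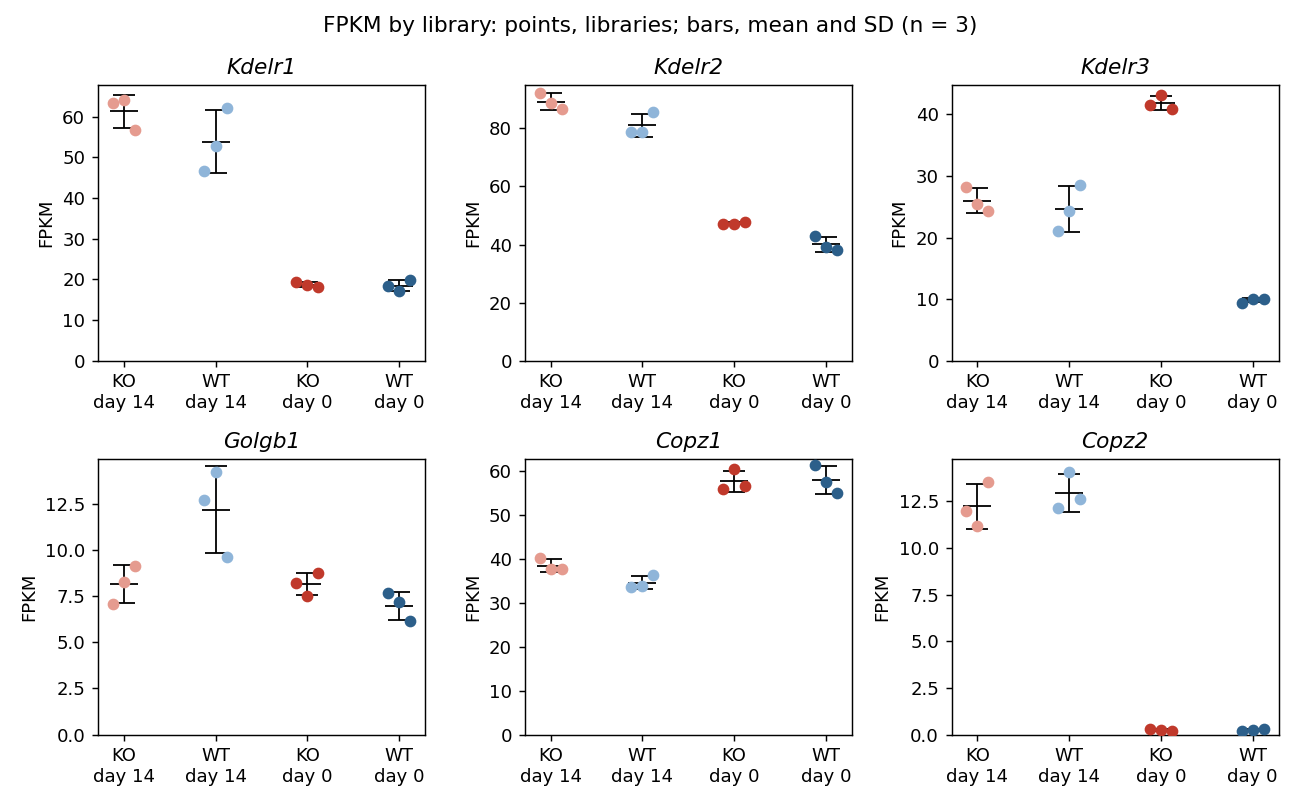
FPKM (vertical axis, from 0) of *Kdelr1*, *Kdelr2*, *Kdelr3*, *Golgb1*, *Copz1* and *Copz2* in 12 libraries by group, with points for libraries and bars for the mean and SD (n = 3). *Kdelr3* in KO ESCs, at 40.9 to 43.1 FPKM, lies above every other library, and *Copz2* lies near 0 in all ESC libraries.

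Genes around *Kdelr3* were looked at after its value was seen. Of the 4 tested, 3 were called in ESCs, where 21.4% of all genes tested were called. At day 14 it was 0 of the 4, beside 2.34% of all genes tested. *Kcnj4*, a potassium channel gene 11169 bases away, was 2.67, 2.58 and 2.34 FPKM in KO ESCs, against 1.24, 0.970 and 1.19 FPKM in WT ESCs (log2 difference 1.10 ± 0.13, adjusted p = 0.00162). *Csnk1e*, a casein kinase gene 60844 bases away, was 14.6, 13.8 and 14.7 FPKM in KO ESCs, against 8.86, 9.04 and 8.89 FPKM in WT ESCs (0.68 ± 0.04, adjusted p = 0.000188). Both were higher in every KO library. *Ddx17*, an RNA helicase gene on the minus strand that shares 4 bases with the end of *Kdelr3*, was 60.9, 56.5 and 59.7 FPKM in KO ESCs, against 70.2, 70.4 and 65.4 FPKM in WT ESCs (-0.22 ± 0.05, adjusted p = 0.0198). *Dmc1*, a meiotic recombinase gene 33757 bases away, was not called (-0.16 ± 0.11, adjusted p = 0.381). The part of these genes in the *Kdelr3* result was not tested.

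Over all members in ESCs, 5 of 36 rose in KO, where 11% of the 19238 genes tested rose, and 2 of 36 fell, where 10.4% fell. The 7 called members are 19.4% of the 36, beside 21.4% of all genes tested. All 3 KO libraries lay above all 3 WT libraries for 11 members (19.9% of all genes) and below them for 5 (20% of all genes). The median log2 difference was 0.04 over the members and -0.0043 over all genes. An unadjusted p under 0.05 was seen for 14 members, a count given without its share over all genes. With TPM scaling 1 member was called higher and 0 lower, and voom on recovered fragments called 12 higher and 3 lower. Shares of all genes under these settings are not given, so these counts show only how far the calls moved.

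Beside the KDEL receptors, 3 genes of different roles rose in KO ESCs. *Lman1*, which encodes the ER exit lectin ERGIC-53, was 15.5, 15.7 and 14.7 FPKM in KO ESCs, against 13.5, 13.3 and 12.8 FPKM in WT ESCs (0.21 ± 0.04, adjusted p = 0.0183). *Sar1a*, a GTPase gene of the COPII coat, was 39.0, 42.1 and 37.1 FPKM in KO ESCs, against 33.5, 35.0 and 34.6 FPKM in WT ESCs (0.19 ± 0.05, adjusted p = 0.0441). *Uso1*, which encodes the tether p115, was 20.1, 18.9 and 20.7 FPKM in KO ESCs, against 17.5, 17.2 and 17.6 FPKM in WT ESCs (0.19 ± 0.05, adjusted p = 0.0287). The groups did not overlap for any of these genes, but each of the 3 calls was lost when single libraries were left out. The *Lman1* call was lost without KO replicate 1, WT replicate 2 or WT replicate 3, and that of *Kdelr2* without KO replicate 1 or 3 or WT replicate 2 or 3. The *Uso1* call was lost without KO replicate 1 or 3 or any WT replicate, and that of *Sar1a* without KO replicate 1 or 2 or any WT replicate, with adjusted p up to 0.103, 0.0925, 0.117 and 0.129 over the alternatives for *Lman1*, *Kdelr2*, *Uso1* and *Sar1a*.

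The genes that fell in KO ESCs were both of the COPII coat. *Sec16a*, which organises ER exit sites, was 6.60, 5.74 and 7.26 FPKM in KO ESCs, against 8.85, 9.01 and 9.24 FPKM in WT ESCs (-0.47 ± 0.09, adjusted p = 0.0108). *Sec24d*, a cargo-binding subunit, was 4.79, 5.06 and 5.27 FPKM in KO ESCs, against 6.26, 6.28 and 6.40 FPKM in WT ESCs (-0.32 ± 0.06, adjusted p = 0.0098). Neither gene overlapped between the groups, and the calls held in 16 and 17 of 18 alternatives. Among the paralogues of *Sec24d*, *Sec24b* was 8.57, 7.55 and 8.85 FPKM in KO ESCs, against 6.76, 7.42 and 6.88 FPKM in WT ESCs (0.24 ± 0.08, adjusted p = 0.0651), and *Sec24c* was 17.2, 16.2 and 17.8 FPKM in KO ESCs, against 19.5, 18.8 and 19.0 FPKM in WT ESCs (-0.16 ± 0.05, adjusted p = 0.0508), neither past the threshold. None of the 11 COPI genes was called in ESCs.

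At day 14 none of the 36 members was called between KO and WT by limma, where 1.45% of the 20506 genes tested rose and 0.883% fell. At an unadjusted p under 0.05, 1 member was higher and 2 were lower, with no share over all genes given, and voom on recovered fragments called 0. The KO libraries lay all above WT for 3 members (15.1% of all genes) and all below for 4 (11.4% of all genes). *Kdelr3* was 28.2, 25.4 and 24.3 FPKM in KO cells at day 14, against 21.0, 24.3 and 28.4 FPKM in WT cells at day 14 (0.09 ± 0.13, adjusted p = 0.728), with overlapping groups. The overlap came from WT replicate 3. Without it the lowest KO library (24.304 FPKM) lay just above the highest WT library (24.266 FPKM), and *Kdelr3* was still not called.

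The members nearest to a call at day 14 were *Tmed10* and *Golgb1*. *Tmed10*, which encodes a p24 cargo receptor, was 48.7, 46.7 and 49.8 FPKM in KO cells at day 14, against 36.3, 40.3 and 42.3 FPKM in WT cells at day 14 (0.29 ± 0.09, adjusted p = 0.135). *Golgb1*, which encodes the giant tether giantin (chr16:36875140-36933085), was 7.06, 8.23 and 9.14 FPKM in KO cells at day 14, against 12.7, 14.2 and 9.61 FPKM in WT cells at day 14 (-0.56 ± 0.17, adjusted p = 0.142). Neither gene overlapped between the groups, and WT replicate 3 was the WT library nearest to KO for both. Without that library 4 members were called higher in KO (*Arf1*, *Tmed9*, *Sar1b* and *Tmed10*) and 1 lower (*Golgb1*), and with weights for libraries 10 were called higher and 1 lower. The shares of all genes under these settings are not given, so the counts cannot be set against them.

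**Figure D2:**
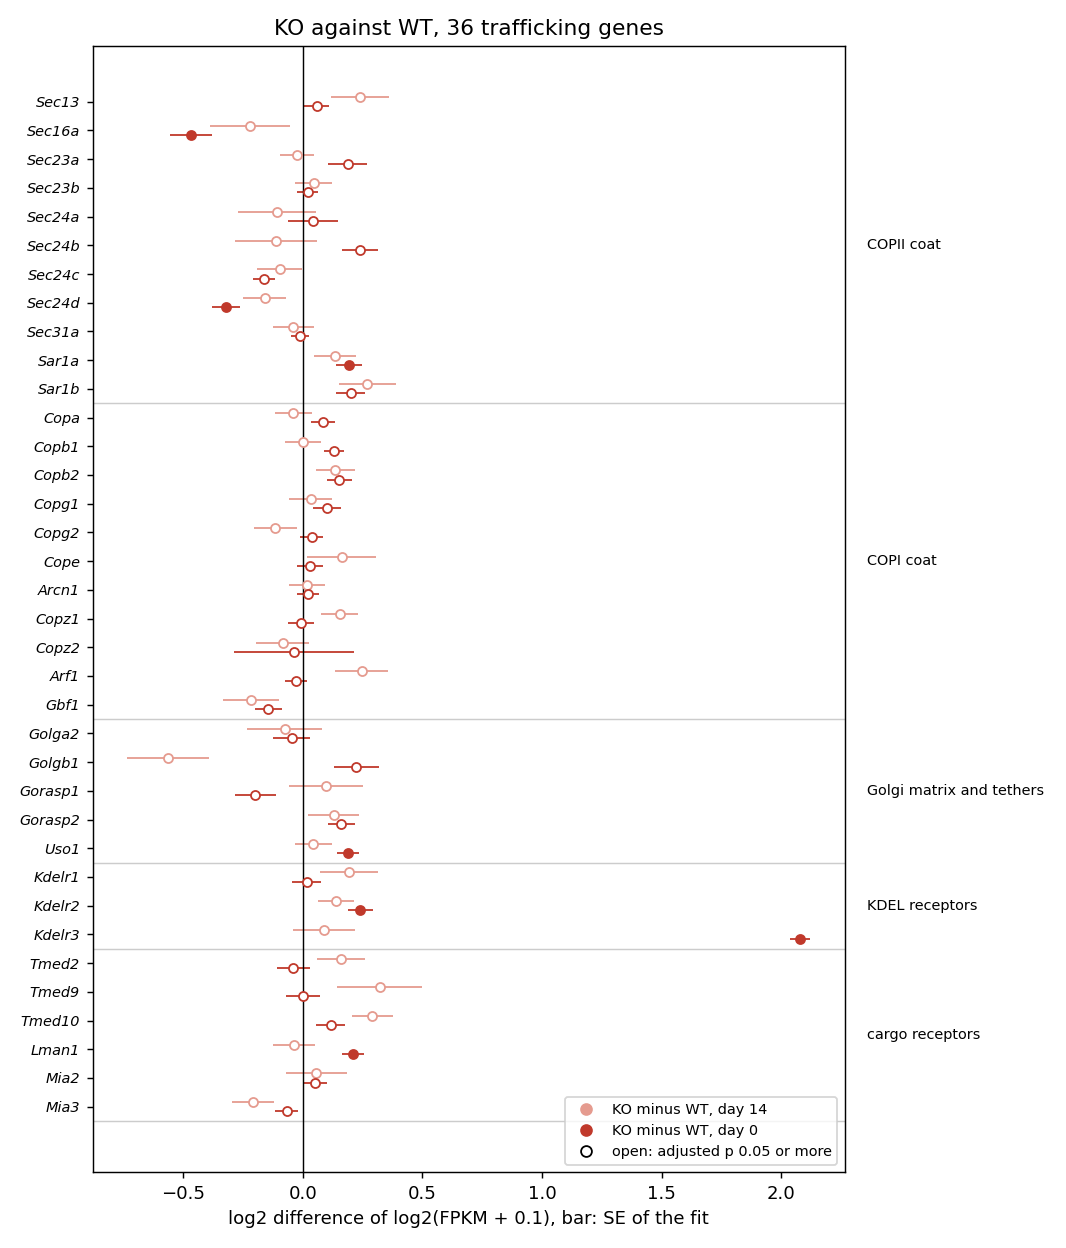
Log2 difference of KO from WT for the 36 members by role (horizontal axis, difference of log2(FPKM + 0.1), bars for the SE of the fit), at day 14 and at day 0, filled where the adjusted p was under 0.05. *Kdelr3* at day 0 lies at 2.08, far from the other points, and no point of day 14 is filled.

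The KO difference itself changed between the days for 2 of 36 members, 0 called higher and 2 lower, by a test on all 12 libraries in which 4.22% of the 22913 genes were called higher and 2.91% lower. For *Kdelr3* the difference of the KO effects, day 14 minus day 0, was -1.99 ± 0.14 (adjusted p = 6.50e-05), and the call held in 23 of 23 alternatives. For *Golgb1* it was -0.79 ± 0.21 (adjusted p = 0.0455), with 8.22, 7.51 and 8.72 FPKM in KO ESCs, against 7.64, 7.15 and 6.15 FPKM in WT ESCs. This second call held in 11 of 23 alternatives, with adjusted p of 0.00178 to 0.111. It was lost without any 1 of the 6 ESC libraries, without KO replicate 1 or 2 of day 14, and without WT replicate 1 or 2 of day 14. With WT replicate 3 of day 14 left out, *Arf1*, *Tmed9* and *Gorasp1* were also called higher by this test, and *Lman1* lower.

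Differentiation moved most of the members, and all differences between the days are given on the log2 scale as day 14 minus day 0. In KO cells 24 of 36 were higher at day 14 than at day 0, where 33.5% of the 20347 genes tested rose, and 5 were lower, where 29.8% fell. In WT cells 27 were higher, where 29% of the 20326 genes rose, and 3 were lower, where 26.4% fell. The median log2 difference of the members was 0.49 in KO and 0.53 in WT, beside 0.0133 in KO and 0.0032 in WT over all genes. Every day 14 library lay above every day 0 library for 25 members in KO (35.7% of all genes) and 28 in WT (33% of all genes), and below for 6 in KO (32.9% of all genes) and 3 in WT (31.2% of all genes). Called in both genotypes were 23 members as higher and 3 as lower, with no share over all genes given for both genotypes together.

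The KDEL receptor genes rose in WT, and *Kdelr3* fell in KO. *Kdelr1* was 63.4, 64.0 and 56.7 FPKM at day 14, against 19.3, 18.7 and 18.1 FPKM at day 0 in KO cells (log2 difference 1.71 ± 0.07, adjusted p = 1.81e-06). The WT values were 46.7, 52.7 and 62.3 FPKM at day 14, against 18.5, 17.3 and 19.8 FPKM at day 0 (1.53 ± 0.12, adjusted p = 7.07e-05). Its groups did not overlap in either genotype. KO cells had *Kdelr2* at 92.2, 88.8 and 86.5 FPKM at day 14, against 47.2, 47.0 and 47.7 FPKM at day 0 (log2 difference 0.91 ± 0.05, adjusted p = 6.91e-06). For WT cells the values were 78.6, 78.8 and 85.6 FPKM at day 14, against 43.0, 39.1 and 38.1 FPKM at day 0 (1.01 ± 0.07, adjusted p = 6.07e-05). This gene, too, was higher in every day 14 library. For *Kdelr3*, whose values are given above, the log2 difference of day 14 from day 0 was -0.69 ± 0.07 (adjusted p = 0.00012) in KO and 1.30 ± 0.12 (adjusted p = 0.000142) in WT. Its share of the summed receptors was 14.7% ± 0.557 at day 14 and 38.8% ± 0.728 at day 0 in KO, and 15.4% ± 0.906 at day 14 and 14.4% ± 0.942 at day 0 in WT (SD, n = 3 each).

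In the COPI coat the zeta subunits went opposite ways. In KO cells *Copz2* was 11.98, 11.1 and 13.5 FPKM at day 14, against 0.310, 0.259 and 0.180 FPKM at day 0 (log2 difference 5.15 ± 0.17, adjusted p = 1.10e-06). WT cells had 12.1, 14.1 and 12.6 FPKM at day 14, against 0.211, 0.263 and 0.295 FPKM at day 0 (5.20 ± 0.15, adjusted p = 2.76e-06). The size of this difference moves with the constant added to low values and ran from 3.47 to 5.69 over the alternatives in WT. *Copz1* was 40.1, 37.7 and 37.6 FPKM at day 14, against 56.0, 60.4 and 56.5 FPKM at day 0 in KO cells (log2 difference -0.58 ± 0.06, adjusted p = 0.000111). The WT values were 33.6, 33.7 and 36.4 FPKM at day 14, against 61.3, 57.6 and 54.9 FPKM at day 0 (-0.74 ± 0.07, adjusted p = 0.000191). All day 14 libraries were above all day 0 libraries for *Copz2* and below them for *Copz1*. *Copz2* had 24.1% ± 2.05 of the summed FPKM of both at day 14 and 0.432% ± 0.117 at day 0 in KO, and 27.2% ± 1.94 at day 14 and 0.443% ± 0.0966 at day 0 in WT (SD, n = 3 each).

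Most other COPI genes rose. KO cells had *Cope* at 77.3, 66.7 and 65.5 FPKM at day 14, against 29.9, 31.4 and 28.2 FPKM at day 0 (log2 difference 1.22 ± 0.08, adjusted p = 1.71e-05). For WT cells the values were 57.9, 54.4 and 76.3 FPKM at day 14, against 28.0, 30.4 and 29.2 FPKM at day 0 (1.09 ± 0.13, adjusted p = 0.000486). This gene encodes the epsilon subunit, and its libraries did not overlap between the days. In KO cells *Copb1* was 47.7, 47.6 and 44.4 FPKM at day 14, against 23.6, 24.9 and 24.6 FPKM at day 0 (log2 difference 0.93 ± 0.05, adjusted p = 9.86e-06). WT cells had 44.7, 47.0 and 47.8 FPKM at day 14, against 22.8, 22.4 and 21.5 FPKM at day 0 (1.06 ± 0.06, adjusted p = 2.74e-05). The beta subunit gene was likewise higher in each day 14 library. *Copa* rose by 0.63 in KO and 0.76 in WT, *Arcn1* (delta) by 0.51 in KO and 0.52 in WT, *Copb2* (beta prime) by 0.31 in KO and 0.33 in WT, and *Arf1* by 0.59 in KO and 0.32 in WT. *Gbf1*, the exchange factor of ARF1, was called in WT (0.26 ± 0.09, adjusted p = 0.0383), a call held in 11 of 18 alternatives, and was 0.19 ± 0.10 (adjusted p = 0.124) in KO. *Copg1* and *Copg2*, the gamma subunits, were called in neither genotype, with 16.6 to 18.8 FPKM for *Copg1* and 16.6 to 19.8 FPKM for *Copg2* over the day 14 libraries of both genotypes.

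In the COPII coat the *Sec23* paralogues also went opposite ways. *Sec23a* was 28.5, 28.9 and 27.6 FPKM at day 14, against 13.9, 16.7 and 15.4 FPKM at day 0 in KO cells (log2 difference 0.88 ± 0.07, adjusted p = 5.77e-05). The WT values were 29.3, 28.4 and 28.7 FPKM at day 14, against 14.4, 13.4 and 12.52 FPKM at day 0 (1.10 ± 0.08, adjusted p = 4.95e-05). The day 14 libraries were above the day 0 libraries without overlap. KO cells had *Sec23b* at 18.2, 17.3 and 17.7 FPKM at day 14, against 24.8, 27.0 and 25.8 FPKM at day 0 (log2 difference -0.54 ± 0.06, adjusted p = 0.000147). For WT cells the values were 17.5, 17.5 and 16.6 FPKM at day 14, against 26.2, 25.0 and 25.3 FPKM at day 0 (-0.57 ± 0.07, adjusted p = 0.000432). Here they were below. *Sec23a* had 61.5% ± 0.943 of the summed FPKM of the pair at day 14 and 37.2% ± 1.14 at day 0 in KO, and 62.6% ± 0.776 at day 14 and 34.5% ± 1.27 at day 0 in WT (SD, n = 3 each), with an exact permutation p of 0.1 in each genotype, the smallest possible.

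**Figure D3:**
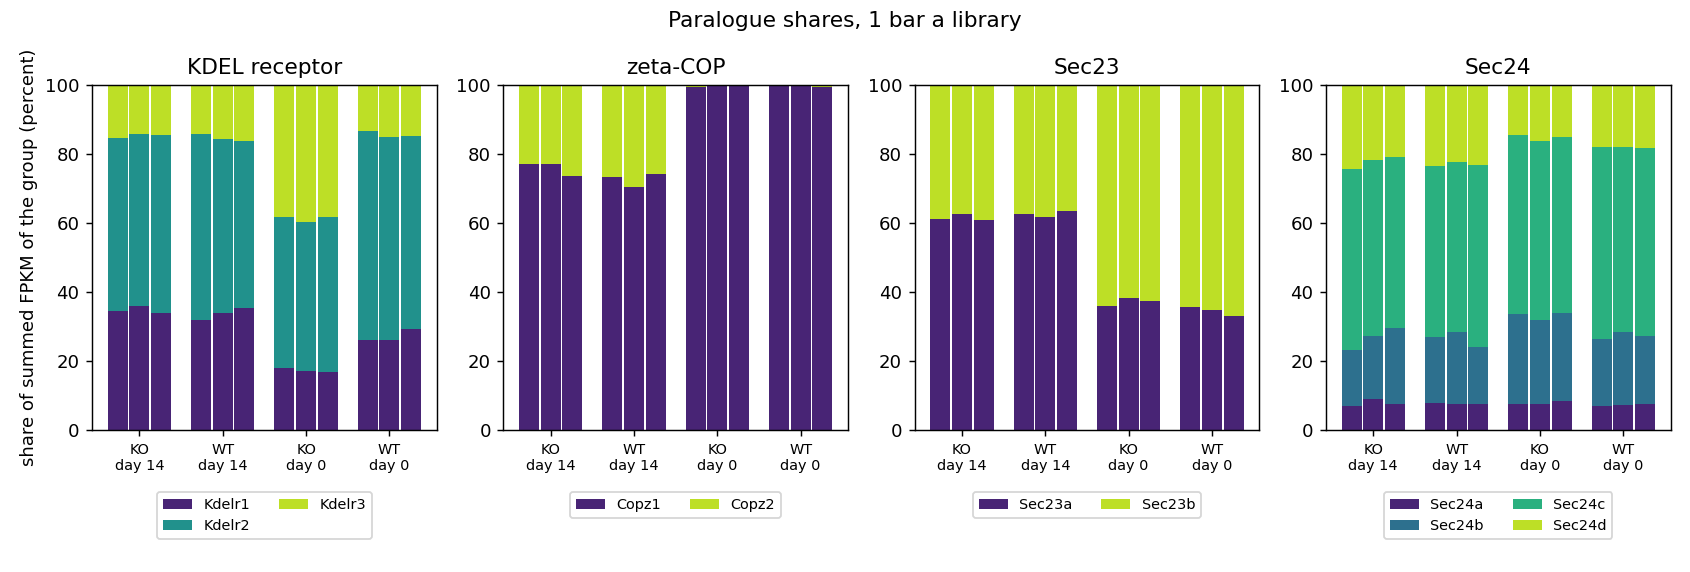
Share of the summed FPKM of 4 paralogue groups (vertical axis, percent), 1 stacked bar a library, 12 libraries by group. *Kdelr3* takes 38.8% on average in KO ESCs and 14.4% to 15.4% in the other groups, and *Copz2* and *Sec23a* take more at day 14 than at day 0.

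Of the other COPII genes, *Sec24d* rose most. In KO cells *Sec24d* was 10.6, 10.6 and 10.2 FPKM at day 14, against 4.79, 5.06 and 5.27 FPKM at day 0 (log2 difference 1.04 ± 0.07, adjusted p = 1.67e-05). WT cells had 11.2, 11.5 and 12.55 FPKM at day 14, against 6.26, 6.28 and 6.40 FPKM at day 0 (0.88 ± 0.08, adjusted p = 0.000174). No libraries overlapped between the days. *Sar1b* rose by 0.77 in KO and 0.70 in WT, *Sar1a* by 0.40 in KO and 0.46 in WT, *Sec24c* by 0.49 in KO and 0.43 in WT, *Sec31a* by 0.47 in KO and 0.50 in WT and *Sec24a* by 0.47 in KO and 0.62 in WT, the last a call held in 9 of 18 alternatives in KO. *Sec24b* was called in WT (0.44 ± 0.10, adjusted p = 0.00938) and was 0.09 ± 0.16 (adjusted p = 0.634) in KO. *Sec13* and *Sec16a* were called in neither genotype.

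The 3 p24 cargo receptor genes among the members rose in both genotypes. Of 7 other p24 genes tested, 5 rose and 1 fell in KO, and 4 rose and 1 fell in WT, the fall being *Tmed8* in each, which is named after its values were seen. *Tmed2* was 84.0, 77.0 and 73.5 FPKM at day 14, against 28.0, 33.8 and 31.1 FPKM at day 0 in KO cells (log2 difference 1.34 ± 0.09, adjusted p = 1.60e-05). The WT values were 67.7, 65.0 and 77.8 FPKM at day 14, against 31.5, 32.1 and 31.5 FPKM at day 0 (1.14 ± 0.08, adjusted p = 5.62e-05). Its days did not overlap. KO cells had *Tmed9* at 72.3, 60.8 and 57.1 FPKM at day 14, against 29.4, 33.2 and 28.7 FPKM at day 0 (log2 difference 1.05 ± 0.10, adjusted p = 0.000111). For WT cells the values were 46.8, 42.1 and 65.2 FPKM at day 14, against 30.4, 28.5 and 32.3 FPKM at day 0 (0.73 ± 0.16, adjusted p = 0.00762). The lowest day 14 library of *Tmed9* was still above its highest day 0 library in each genotype. In KO cells *Tmed10* was 48.7, 46.7 and 49.8 FPKM at day 14, against 21.0, 24.4 and 21.6 FPKM at day 0 (log2 difference 1.11 ± 0.07, adjusted p = 1.47e-05). WT cells had 36.3, 40.3 and 42.3 FPKM at day 14, against 20.2, 20.5 and 21.0 FPKM at day 0 (0.94 ± 0.08, adjusted p = 9.73e-05). *Tmed10*, too, was higher in each day 14 library than in each day 0 library of its genotype. *Lman1* rose by 0.48 in KO and 0.73 in WT. *Mia3* (TANGO1), which loads large cargo such as collagen at ER exit sites, rose by 0.26 in KO and 0.40 in WT, and its paralogue *Mia2* differed by -0.45 in KO and -0.46 in WT, a fall in both.

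Among the tethers and matrix genes *Golga2*, which encodes the Golgi matrix protein GM130, rose most. *Golga2* was 14.04, 13.6 and 13.95 FPKM at day 14, against 5.77, 5.57 and 5.24 FPKM at day 0 in KO cells (log2 difference 1.31 ± 0.06, adjusted p = 4.96e-06). The WT values were 13.7, 12.2 and 18.6 FPKM at day 14, against 5.19, 5.997 and 5.97 FPKM at day 0 (1.34 ± 0.16, adjusted p = 0.000518). Its libraries did not overlap between the days. *Gorasp2* (GRASP55) rose by 0.52 in KO and 0.55 in WT. *Gorasp1* (GRASP65) was called in KO (0.66 ± 0.08, adjusted p = 0.000357) and was 0.36 ± 0.16 (adjusted p = 0.0919) in WT. *Golgb1* was -0.01 ± 0.11 (adjusted p = 0.964) in KO and rose by 0.78 ± 0.16 (adjusted p = 0.00595) in WT, and *Uso1* fell by 0.17 in KO (adjusted p = 0.0372, held in 11 of 18 alternatives) and was -0.02 ± 0.07 (adjusted p = 0.809) in WT. Of the members called in 1 genotype alone or in opposite directions, *Kdelr3* and *Golgb1* were the ones for which the test of the difference passed on all libraries. Without WT replicate 3 of day 14 *Gorasp1* passed as well.

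**Figure D4:**
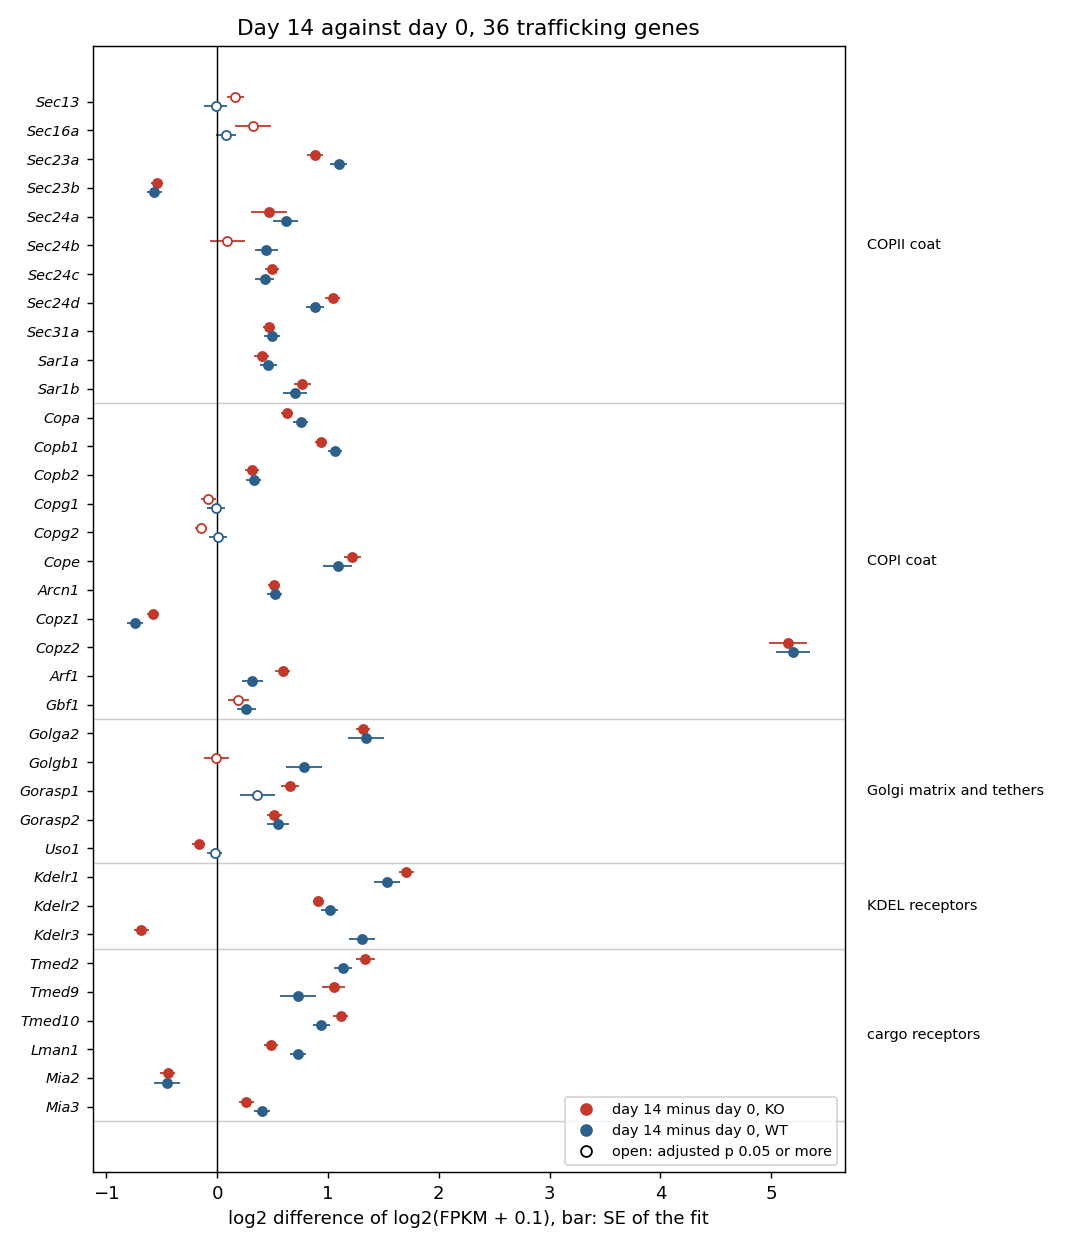
Log2 difference of day 14 from day 0 for the 36 members by role (horizontal axis, difference of log2(FPKM + 0.1), bars for the SE of the fit), in KO and in WT, filled where the adjusted p was under 0.05. *Copz2* lies at 5.15 in KO and 5.20 in WT, and *Kdelr3* lies at -0.69 in KO and 1.30 in WT.

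By role, the summed FPKM at day 14 and day 0 were 296 ± 5.73 and 224 ± 7.11 in KO, against 281 ± 20.0 and 215 ± 1.01 in WT for the COPII coat, and 625 ± 23.6 and 438 ± 18.5 in KO, against 569 ± 43.9 and 432 ± 6.0 in WT for the COPI coat (SD, n = 3 each). For the cargo receptors they were 231 ± 10.9 and 118 ± 7.18 in KO, against 204 ± 19.4 and 115 ± 1.47 in WT. The matrix and tether genes had 85.6 ± 1.24 and 65.2 ± 0.446 in KO, against 86.5 ± 7.06 and 59.4 ± 0.431 in WT. All 36 members summed to 1413 ± 43.0 and 953 ± 33.8 in KO, against 1300 ± 105 and 889.7 ± 9.17 in WT. *Arf1*, the GTPase gene counted with the COPI coat, made up a large part of the COPI sums. Alone it had means of 291 FPKM at day 14 and 193 FPKM at day 0 in KO, and 246 and 197 FPKM in WT.

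Pooled, the other genes of the pathway were called between KO and WT at shares no higher than those of all genes. Of 151 entries (150 genes, *Ddit3* being entered again under another ID), 1 rose and 1 fell of 145 tested in KO at day 14 (1.38%, beside 2.34% of all genes), and 20 rose and 7 fell of 141 tested in KO ESCs (19.1%, beside 21.4% of all genes). Single lists differed in ESCs, from 1 of 21 ER chaperone genes (4.76%) to 7 of 13 secreted matrix genes (53.8%). At day 14 the calls were 1 of 10 transcription factor genes and 1 of 17 secreted matrix genes. With differentiation 99 rose and 16 fell of 144 tested in KO (79.9%, beside 63.3% of all genes), and 87 rose and 12 fell of 145 tested in WT (68.3%, beside 55.5% of all genes). All 21 ER chaperone and folding genes rose in KO and 18 of 21 in WT, among them *Serpinh1*, a collagen chaperone (3.33 in KO and 3.02 in WT). Of 15 other cargo receptor genes, 14 rose in KO and 13 in WT, with *Surf4* at 1.39 in KO and 1.48 in WT. Of 25 tether genes of the TRAPP, COG and NRZ complexes, 9 rose and 6 fell in KO, and 3 rose and 4 fell in WT.

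Of 10 transcription factor genes of the secretory pathway tested between the days, 5 rose and 1 fell in KO, and 6 rose and 1 fell in WT. *Creb3*, *Creb3l1* and *Creb3l2*, whose products can switch on secretory genes, rose by 3.54, 2.96 and 3.02 in KO and by 3.14, 2.32 and 3.64 in WT. *Xbp1* was 45.1, 44.0 and 43.1 FPKM in KO cells at day 14, against 41.4, 42.9 and 43.6 FPKM in WT cells at day 14, and 26.3, 29.9 and 27.3 FPKM in KO ESCs, against 19.8, 21.1 and 20.6 FPKM in WT ESCs (0.44 ± 0.06, adjusted p = 0.00262). Its groups were apart in ESCs and overlapped at day 14, where WT replicate 3 lay within the KO range. *Atf4*, of the integrated stress response, was higher in KO at day 14 (0.80 ± 0.11, adjusted p = 0.0211) and in ESCs (0.55 ± 0.06, adjusted p = 0.00181), and fell with differentiation (-0.63 ± 0.07, adjusted p = 0.000189 in KO and -0.89 ± 0.10, adjusted p = 0.000395 in WT). The calls in ESCs went both ways, with 2 of the 10 transcription factor genes higher in KO and 1 lower. *Ddit3* was lower in every KO than in every WT ESC library, with means of 2.98 FPKM in KO and 4.04 FPKM in WT. *Hspa5*, which encodes the KDEL protein BiP and was picked after its values were seen, was 109, 116 and 112 FPKM in KO ESCs, against 124, 119 and 119.6 FPKM in WT ESCs (-0.10 ± 0.04, adjusted p = 0.128) and was not called in ESCs.

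Several members share annotated bases with a gene on the other strand, and whether counting used strand is not stated in the sources used here. These include *Copg2* with *Mest*, *Copa* with *Ncstn*, *Golga2* with *Swi5*, *Gorasp1* with *Wdr48*, *Gorasp2* with *Tlk1* and *Kdelr1* with *Grin2d*. *Tmed10* also has a pseudogene copy, *Tmed10-ps*, in the tables, so its fragments may be split between them.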

How the data were processed

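The 12 libraries came from poly(A) RNA. The authors deposited FPKM per gene, made per the labels with HISAT2 2.0.5 on mm10 and featureCounts 1.5.0-p3. The annotation release is not given in the sources used here. FPKM times gene length was a whole multiple, within 0.001, of 1 step per library for 100% of genes, and that step was taken as 1 fragment.

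Sample titles gave the groups. A gene entered a fit when 3 or more of its libraries reached 0.1 FPKM, and all 36 members did so in every fit. The test was limma 3.58.1 in R 4.3.3 with a mean-variance trend, on log2(FPKM + 0.1), which understates changes of low genes. Benjamini-Hochberg adjustment ran over every gene in the fit (threshold 0.05). The script was tested on simulated data. Alternatives covered pseudocounts of 1 and 0.01, a stricter filter (1 FPKM) or no filter, quantile, TPM and median-ratio scaling, voom, a joint fit of all groups, library weights, a replicate block and each library left out. TPM over genes of at least 200 bases was added after seeing the data. Every member is accounted for and those past the threshold are named. From each other list at most 4 genes past the test in a comparison are named, by adjusted p. The members, lists and motifs were chosen with earlier results of these data known.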

Additional observations from a re-analysis of the deposited data

Results flagged for a closer look

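The difference of KO effects, day 14 minus day 0, passed limma's test on all 12 libraries for 2 of 36 members (5.56%) and 11 of 145 other ER-Golgi genes (7.59%), beside 7.13% of all 22913 genes. Those other genes include ER chaperone, secreted matrix and transcription factor genes. The difference was -1.99 on the log2 scale for *Kdelr3* and -0.79 for *Golgb1*. Among Golgi and coat genes it was -1.71 for the GTPase gene *Rab6b* and 0.58 for *Arf3*, and for the transcription factor gene *Xbp1* it was -0.39. Of 21 ER chaperone genes 3 passed, all with a more positive KO effect at day 14, with 0.52 for *Hspa5*, 0.37 for *Pdia3* and 0.30 for *Calr*. The collagen genes among the 11 were 5 and went both ways, with 2.55 for *Col5a2*, 1.15 for *Col1a2*, -1.99 for *Col3a1*, -0.62 for *Col4a1* and -0.76 for *Col4a2*. The adjusted p of these 13 genes ranged from 6.5e-05 for *Kdelr3* to 0.0455 for *Golgb1* and *Arf3*.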

How the results depend on the processing

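No called member changed sign under any alternative run. Counts under the alternatives are for the members alone, without the share over all genes. In KO ESCs (5 members higher, 2 lower) TPM scaling gave 1 higher and 0 lower, the joint fit of all groups 2 and 1, quantile scaling 8 and 2, and voom 12 and 3, while leaving out 1 library gave 1 to 5 higher. At day 14 (0 and 0) the joint fit gave 1 higher and 1 lower, library weights 10 and 1, and leaving out 1 library 0 to 4 higher and 0 to 1 lower, with calls only when WT replicate 3 was left out. For the difference of KO effects (0 higher, 2 lower) no filter gave 1 lower, quantile scaling 4, TPM over genes of at least 200 bases 5, library weights 5 higher, and leaving out 1 library 1 to 3 lower and 0 to 3 higher. Among the libraries left out, only WT replicate 3 of day 14 gave members called higher. Counts between the days stayed within 1.5 times. From fragments, which are not divided by gene length, the *Kdelr3* share differed by 21.3 percentage points between KO and WT ESCs and by -21.02 between the days in KO, and that of *Copz2* by 15.8 in KO and 18.2 in WT. TPM scaling moved the median of all genes by -0.14 at day 14, 0.11 in ESCs, 0.21 between the days in WT and -0.24 for the difference of effects. Quantile scaling moved it by -0.21 between the days in each genotype. The 57-base gene *Gm23935* had 79948 FPKM in 1 WT ESC library. TPM over genes of at least 200 bases moved the median by -0.15 at day 14 and 0.02 in ESCs. It moved it by 0.12 between the days in WT and by -0.17 for the difference of effects. The cause of these changes was not tested.

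Libraries that share a replicate number did not deviate together (r of -0.234 to 0.0217). With 3 libraries a group this check cannot exclude a shared culture or batch, and no pairing is stated in the labels. With the replicate block 2 members were higher in KO ESCs, and 1 was lower in the difference of KO effects.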
